A study of Bos taurus with 30 samples.

Results

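The clustered H2B histone genes described here are 6 genes of the cow, H2BC12 (ENSBTAG00000038173), H2BC13 (ENSBTAG00000052713), H2BC14 (ENSBTAG00000050532), H2BC4 (ENSBTAG00000052382), H2BC18 (ENSBTAG00000032455) and H2BU1 (ENSBTAG00000053467), out of 27607 genes in the count table. They were selected on their levels in jugular blood stored for 24 h and for 1 h, because the study listed them among the transcripts of greater abundance at 24 h. The difference between those 2 groups is therefore given as a description, and calls in it are printed beside the share of all genes called, with nothing read from them. Transcripts were counted by RNA-sequencing of poly(A)-selected RNA from peripheral white blood cells (PWBCs), the nucleated cells of the buffy coat left after red cells are lysed. The blood came from 5 crossbred beef heifers (Angus x Simmental), just over a year old, in estrus after synchronization with hormones. Each heifer gave 1 tube from the coccygeal (tail) vein, processed after 1 h, and 5 tubes from the jugular vein, kept at 4 °C for 1, 3, 6, 8 or 24 h. The groups were coccygeal 1 h (n = 5), jugular 1 h (n = 5), jugular 3-8 h (n = 15) and jugular 24 h (n = 5). The 3, 6 and 8 h libraries are held together as jugular 3-8 h because their columns were not matched to a time or to an animal, and each heifer gave 3 of these 15 libraries. All heifers shared the hormone treatment and the EDTA tubes, and the shortest storage was 1 h.

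Histone H2B pairs with H2A, and H2A-H2B dimers join H3 and H4 in the nucleosome, the particle on which DNA is wound. Most H2B genes lie in clusters with other histone genes and are transcribed mainly in S phase, when new DNA has to be packed. Messengers of such replication-dependent genes usually end in a stem-loop in place of a poly(A) tail and are poorly captured by poly(A) selection, and most circulating leukocytes do not divide. The levels below are those of the captured transcripts, and near-identical copies of the coding sequence exist, so that reads shared between copies could have been split or left out. In bulk samples, fewer cells of a type and less RNA per cell cannot be told apart.

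In the Ensembl annotation of the ARS-UCD1.2 assembly, 4 of the genes lie on chromosome 23. H2BC14 has a model at chr23:30948090-30995670 on the minus strand, which spans 47581 bases for a transcript of 533 bases. H2BC13 lies 6819 bases beyond it, at chr23:31002490-31002870 on the plus strand. H2BC12 is at chr23:31354601-31355275 on the plus strand, with a transcript of 675 bases. H2BC4 is at chr23:31829268-31829648 on the plus strand, and 279 bases separate it from H2AC6, an H2A gene on the opposite strand. The remaining genes lie elsewhere. H2BC18 is at chr3:20779441-20779821 on the plus strand, 11739 bases from the H4 gene H4C14. H2BU1 is at chr7:2573114-2573494 on the minus strand, 262 bases from the H2A gene H2AW, which is on the other strand. The models of H2BC13, H2BC4, H2BC18 and H2BU1 are each 381 bases long. All 6 are annotated as protein coding.

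Libraries held 12412619 to 19492274 counted fragments (median 16925894), so that 3 counts, taken as the floor, equal 0.154 to 0.242 counts per 1000000 counted fragments (CPM). Over the 30 libraries H2BC4 received 4776 counts, H2BC14 851, H2BC12 834, H2BC13 738, H2BU1 545 and H2BC18 280. Genes were tested where CPM was above 1 in at least 5 of the 30 libraries, which kept 14018 genes and each of the 6. H2BC4 passed in 30 libraries, H2BC14 in 21, H2BC13 in 19, H2BC12 in 16 and H2BU1 in 14. H2BC18 passed in 5, of which 4 were jugular 24 h libraries, so that its place among the tested genes rests on the group where it was high. Of the 15 leukocyte markers listed for the check of cell identity, 4 could be matched to an identifier, and their mean CPM in the jugular 1 h libraries was 504.2 for the B-cell gene CD79A, 257.1 for CD4, 67.4 for the monocyte gene CD14 and 49.4 for CD8A. The listed markers of platelets and red cells were not matched and not analysed here.

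All 6 genes were higher in jugular blood stored for 24 h than in that stored for 1 h, in each of the 5 animals. The difference in mean CPM ranged from 1.497-fold for H2BC4 to 10.4-fold for H2BC18. In all 6 genes the lowest 24 h library lay above the highest jugular 1 h library, a separation seen in 1.44% of the 14018 tested genes. In the blocked fit of these 10 libraries, 4 of the 6 passed the thresholds (adjusted p under 0.05 in both edgeR and DESeq2, and an absolute log2 fold change above 0.5), against 1.45% of all tested genes called higher. DESeq2 returned no adjusted p for H2BC18 and H2BU1, whose mean counts fell under its own filter. When an animal was left out, 1 (without A) to 4 of the 6 passed, among 156 (without A) to 396 genes called. As these 10 libraries chose the genes, nothing is read from these counts. RNA integrity was not analysed here, and its part in the difference between 24 h and 1 h was not tested.

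H2BC12 differed most of the 3 genes on chromosome 23 that were near 1 CPM at 1 h. In the jugular 1 h libraries of animals A to E it measured 0.718, 0.325, 0.848, 0.929 and 1.29 CPM. In the 24 h libraries of the same animals it measured 3.65, 5.33, 3.31, 6.50 and 7.10 CPM. The group means were 0.822 ± 0.349 (SD, n = 5) at 1 h and 5.18 ± 1.68 CPM (SD, n = 5) at 24 h, a 6.30-fold difference, with a log2 fold change of 2.67 (edgeR). The lowest 24 h value was from animal C and the lowest 1 h value from animal B, so that the fold within an animal ran from 3.91 in C to 16.4 in B, where 6 counts stood against 97.

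H2BC13 and H2BC14, neighbours on chromosome 23, differed by similar amounts. H2BC13 measured 1.23, 1.03, 0.848, 0.813 and 1.21 CPM at 1 h and 2.43, 3.30, 2.47, 4.80 and 5.29 CPM at 24 h in animals A to E. The group means of 1.03 ± 0.195 and 3.66 ± 1.32 CPM (SD, n = 5 each) were 3.56-fold apart, with a log2 fold change of 1.77. Animals D and E stood above the other 3 at 24 h, although D had the lowest value at 1 h. H2BC14 measured 1.54, 0.596, 1.04, 1.34 and 0.886 CPM at 1 h, and 3.10, 3.68, 3.70, 5.93 and 4.58 CPM at 24 h. Its mean went from 1.08 ± 0.371 (SD, n = 5) to 4.20 ± 1.102 CPM (SD, n = 5), 3.89-fold, with a log2 fold change of 1.94. Animal A had the highest 1 h value and the lowest 24 h value of H2BC14, and its 2.02-fold difference was the smallest of the 5.

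H2BC4 had the highest level of the 6 genes in each group and the smallest fold at 24 h. It measured 10.1, 7.90, 7.04, 8.82 and 10.4 CPM at 1 h, and 12.7, 13.3, 11.3, 14.96 and 13.96 CPM at 24 h. The group means were 8.84 ± 1.41 and 13.2 ± 1.37 CPM (SD, n = 5 each). At 0.59, the log2 fold change of H2BC4 was the closest of the 6 to the threshold of 0.5, and the fold within an animal ran from 1.26 in A to 1.70 in D. The lowest 24 h library exceeded the highest 1 h library by less than 1 SD.

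H2BC18 was close to the floor at 1 h. Its counts in the jugular 1 h libraries of animals A to E were 4, 2, 2, 5 and 2, and in the 24 h libraries 16, 33, 26, 36 and 33. Summed over the group this was 15 against 144 counts, a ratio of 10.1 per counted fragment with an exact 95% binomial interval of 5.94 to 18.6 that covers counting error only. The DESeq2 log2 fold change was 3.33 with a standard error of 0.58, the widest of the 6, and that of edgeR was 3.27. Animal A had the lowest 24 h value, 0.974 CPM, and the other 4 lay between 1.69 and 2.60 CPM.

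H2BU1, whose locus on chromosome 7 is apart from both clusters, measured 0.667, 0.866, 0.978, 0.697 and 1.05 CPM at 1 h and 1.70, 1.37, 1.82, 2.27 and 1.81 CPM at 24 h. The mean went from 0.851 ± 0.168 (SD, n = 5) to 1.80 ± 0.322 CPM (SD, n = 5), 2.11-fold, with a log2 fold change of 1.08. Its counts varied between the animals of a group about as much as counting error alone would give, with a variance over the Poisson expectation of 0.533 at 1 h and 0.979 at 24 h. The same ratio at 24 h was 8.14 for H2BC12, 7.15 for H2BC13, 4.66 for H2BC14, 3.14 for H2BC18 and 2.205 for H2BC4. At 24 h these ratios were above 1, the value that counting error gives on average. With 5 libraries such a ratio is imprecise, and it was not tested. In jugular 1 h the ratio was 2.41 for H2BC12, 2.28 for H2BC14 and 3.53 for H2BC4. It was 0.611 for H2BC13 and 0.496 for H2BC18, which did not vary more than counting there.

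**Figure D1:**
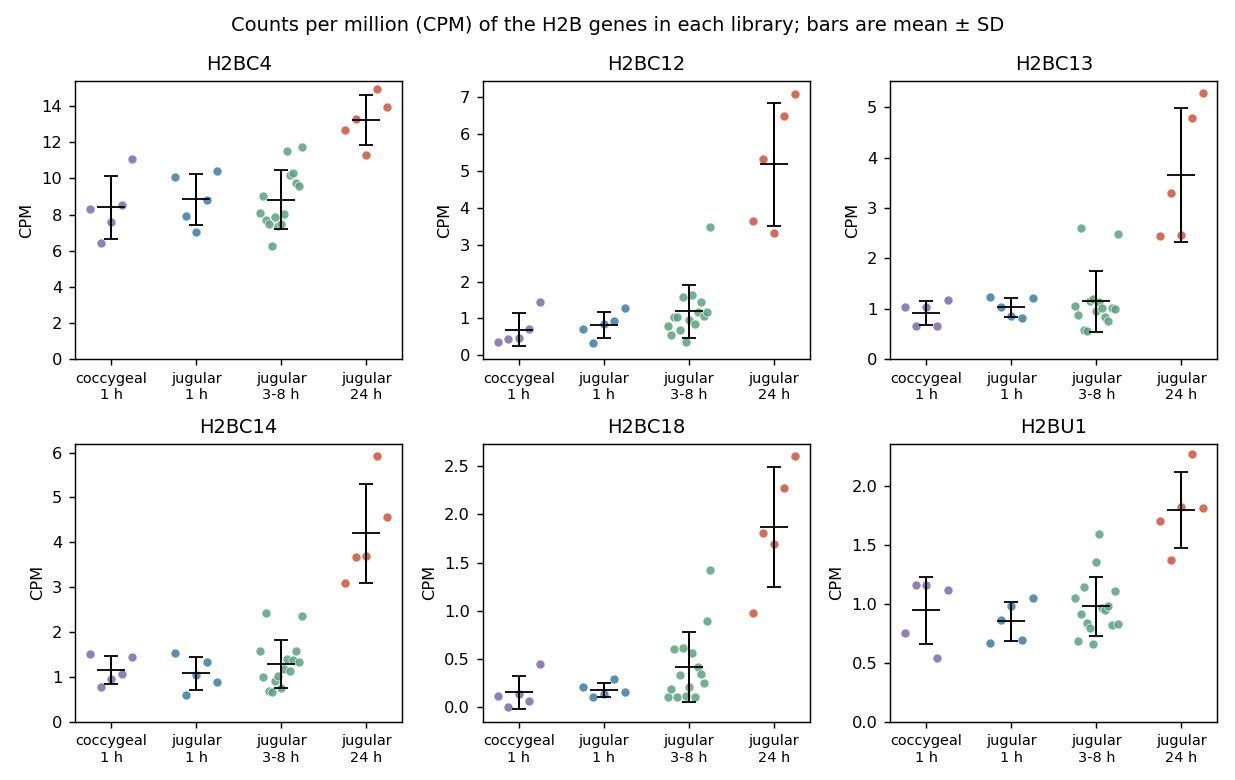
Level of each H2B gene in every library, in CPM (y axis) by group (x axis), with 1 point per library and the mean and SD as bars. The 5 jugular 24 h libraries lie above the jugular 1 h and coccygeal 1 h libraries in all 6 panels, and 1 jugular 3-8 h library stands high for H2BC12, at 3.49 CPM.

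**Figure D2:**
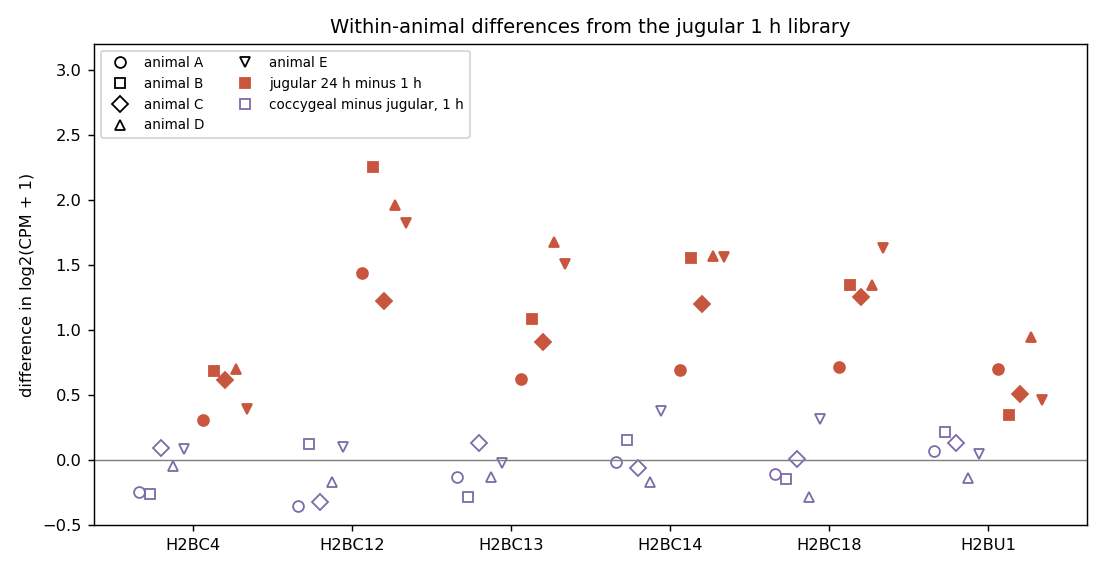
Difference in log2(CPM + 1) from the jugular 1 h library of the same animal (y axis) for each gene (x axis), with filled symbols for jugular 24 h, open symbols for coccygeal 1 h and 1 symbol shape per animal. The filled symbols are above 0 for all 5 animals, from 0.31 for H2BC4 in animal A to 2.26 for H2BC12 in animal B, and the open symbols lie on both sides of 0 for every gene.

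Levels between genes were compared per length, as CPM per kilobase of transcript (FPKM). H2BC4 was at the top in each group, with a mean of 23.2 ± 3.71 FPKM (SD, n = 5) in jugular 1 h and 34.7 ± 3.61 FPKM (SD, n = 5) in jugular 24 h, and its range overlapped that of no other member. In jugular 1 h it was followed by H2BC13 at 2.69 ± 0.513, H2BU1 at 2.23 ± 0.441, H2BC14 at 2.03 ± 0.695, H2BC12 at 1.22 ± 0.518 and H2BC18 at 0.470 ± 0.189 FPKM (SD, n = 5 each). Each of these overlapped with the next in the order, so that neighbours did not differ beyond their spread. At 24 h the order was H2BC13 at 9.60 ± 3.47, H2BC14 at 7.88 ± 2.07, H2BC12 at 7.67 ± 2.49, H2BC18 at 4.91 ± 1.63 and H2BU1 at 4.72 ± 0.845 FPKM (SD, n = 5 each), again with overlap between neighbours. H2BU1 thus went from rank 3 to rank 6 of the 6 and H2BC12 from rank 5 to rank 4. H2BU1 (1.75 to 2.75 FPKM) and H2BC18 (0.284 to 0.762 FPKM) did not overlap in jugular 1 h, whereas they overlapped at 24 h.

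The make-up of the summed H2B level was different at 24 h. The 6 genes together measured 12.8 ± 1.93 CPM (SD, n = 5) in jugular 1 h, 12.2 ± 2.70 CPM (SD, n = 5) in coccygeal 1 h, 13.8 ± 3.05 CPM (SD, n = 15) in jugular 3-8 h and 29.9 ± 5.87 CPM (SD, n = 5) in jugular 24 h. H2BC4 gave 69.0% ± 2.99 (SD, n = 5) of the sum in jugular 1 h, 68.7% ± 2.95 (SD, n = 5) in coccygeal 1 h, 64.4% ± 6.75 (SD, n = 15) in jugular 3-8 h and 44.9% ± 4.90 (SD, n = 5) in jugular 24 h. H2BC12, H2BC13 and H2BC14 together gave 22.8% ± 2.82 (SD, n = 5) in jugular 1 h and 42.8% ± 4.65 (SD, n = 5) in jugular 24 h. The share of H2BC4 was 39.5% to 51.6% in the 24 h libraries and 64.7% to 73.0% in the jugular 1 h libraries, without overlap. In the jugular 3-8 h libraries it was 50.4% to 73.2%, which overlapped with the 24 h range. The 24 h and jugular 1 h shares come from the libraries that chose the genes and are a description.

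**Figure D3:**
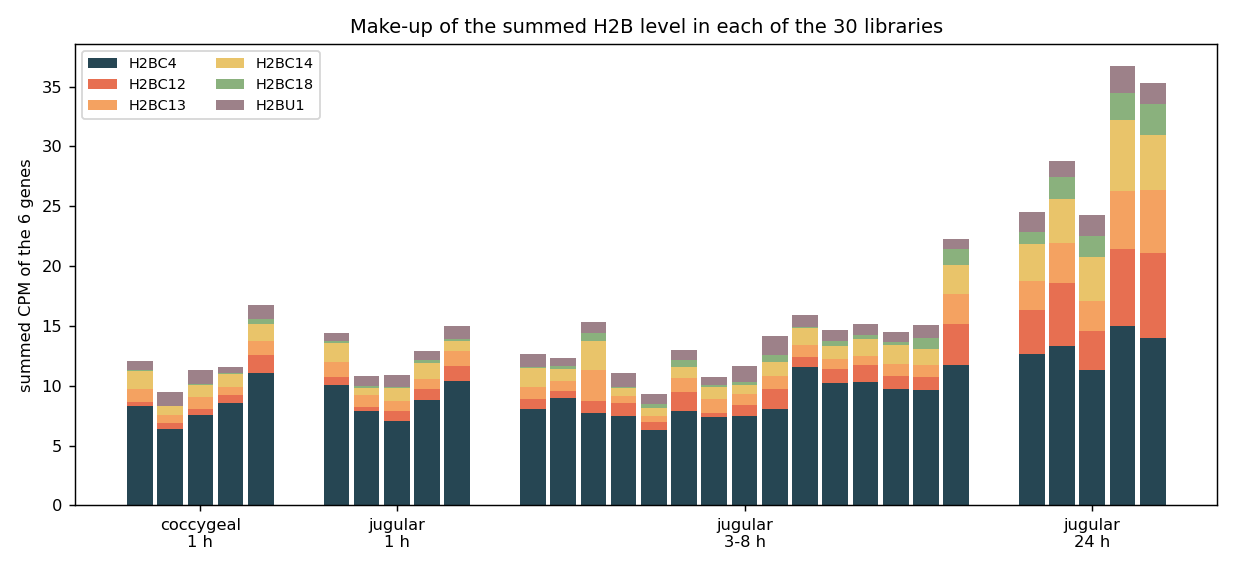
Summed CPM of the 6 H2B genes (y axis) in each of the 30 libraries, grouped by vein and storage time (x axis), with 1 bar per library stacked by gene. The jugular 24 h bars reach 24.3 to 36.7 CPM, the bars of the other groups reach 9.35 to 22.3 CPM, and the H2BC4 part takes a smaller share of the 24 h bars.

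The second question was whether the H2B genes differed already at 3 to 8 h. The jugular 3-8 h and coccygeal 1 h libraries were not compared in the contrast that chose the genes. The study's fit held all jugular libraries, so that those of 3-8 h were not fully apart from the choice. Between jugular 3-8 h and coccygeal 1 h, vein and time differ together. H2BC18 counted 2 to 24 in the 15 jugular 3-8 h libraries (median 6) and 2, 0, 2, 1 and 8 in the coccygeal libraries of animals A to E. The library with 0 counts allows up to 0.166 CPM. The means were 0.417 ± 0.363 CPM (SD, n = 15) and 0.152 ± 0.173 CPM (SD, n = 5), and 5 of the 15 libraries exceeded every coccygeal one. The log2 fold change of H2BC18 was 1.45, and its 95% interval ran from 0.05 to 2.85 (DESeq2, unadjusted p = 0.042), and edgeR gave an unadjusted p of 0.051. Neither tool called it, with adjusted p = 1.00 in both. Of the 5 libraries through which H2BC18 passed the filter, 4 were jugular 24 h and 1 was the highest jugular 3-8 h library, so that it was tested because of groups where it was high and the unadjusted p supports no difference.

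H2BC12 was next in size. It ranged from 0.359 to 3.49 CPM in the jugular 3-8 h libraries (median 1.04) against 0.347, 0.443, 0.478, 0.716 and 1.45 CPM in the coccygeal libraries, and the ranges overlapped. The interval of its log2 fold change, 0.78, ran from -0.04 to 1.60 (DESeq2, adjusted p = 1.00). The other 4 genes had smaller values. The intervals ran from -0.36 to 1.03 for H2BC13, from -0.45 to 0.78 for H2BC14, from -0.44 to 0.54 for H2BU1 and from -0.23 to 0.37 for H2BC4.

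None of the 6 was called in this comparison, nor was any of the 14018 genes (0%) by edgeR and DESeq2 together or by either alone. At an unadjusted p under 0.05, edgeR gave 182 genes, with no H2B gene among them, and DESeq2 gave 220, with H2BC18. The log2 fold changes of all 6 were above 0, as were those of 55.0% of all tested genes, and their median was 0.24 against 0.01 over all genes. As each heifer gave 3 of the 15 libraries and no animal was set as a block, since their columns name no animal and none was assigned from the values, the p-values treat related libraries as independent. The fit did not take up differences between animals either, and dropping the block alone took the calls between jugular 24 h and 1 h from 361 to 30, so that the lack of calls here does not show that levels were the same.

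Against the jugular 1 h libraries, which share the vein but helped to choose the genes, the picture was similar. On the log2 scale H2BC18 was higher by 1.21 (interval -0.05 to 2.47) and H2BC12 by 0.55 (interval -0.23 to 1.33, DESeq2), and neither was called. H2BC4 was at 8.83 ± 1.62 CPM (SD, n = 15) in jugular 3-8 h and 8.84 ± 1.41 CPM (SD, n = 5) in jugular 1 h, and the interval of its log2 difference was -0.30 to 0.29. H2BC13, H2BC14 and H2BU1 had log2 fold changes of 0.16, 0.26 and 0.23. On leaving out a library of either group (edgeR), H2BC12 ran from 0.34 to 0.76 and H2BC18 from 0.91 to 1.41. The ranges were 0.02 to 0.24 for H2BC13, 0.09 to 0.42 for H2BC14 and 0.13 to 0.29 for H2BU1. None of the 6 and 0% of all genes were called by either tool, and at an unadjusted p under 0.05 edgeR gave 174 genes and DESeq2 234, without an H2B gene. This comparison and the one with coccygeal blood share the 15 jugular 3-8 h libraries.

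For H2BC12 and H2BC18, 1 of the 15 jugular 3-8 h libraries stood above the others. It held 59 counts of H2BC12 (3.49 CPM, with the next library at 1.64) and 24 of H2BC18 (1.42 CPM, with the next at 0.888). It was also highest for H2BC4, at 11.7 CPM, and second for H2BC13, at 2.48 CPM, and for H2BC14, at 2.37 CPM, but its H2BU1 level of 0.828 CPM was below the group median of 0.944 CPM. Its total of 16906679 counts was within the range of the other libraries. A different library was highest for H2BC13, at 2.61 CPM, and H2BC14, at 2.43 CPM, and it measured 1.03 CPM for H2BC12, close to the median. Without the library rich in H2BC12, the log2 fold change against coccygeal blood (edgeR) was 0.57 for H2BC12 and 1.14 for H2BC18, against 0.78 and 1.40 with all libraries. Without the coccygeal library of animal E it was 1.25 for H2BC12 and 2.36 for H2BC18, and no gene was called in either case. Whether these libraries come from the 8 h tubes or from a given animal was not tested.

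Between jugular 3-8 h and jugular 24 h the libraries overlapped slightly. The lowest 24 h library lay above all 15 jugular 3-8 h libraries for H2BC14, a separation seen in 0.0713% of tested genes, and not for the other 5. For H2BC12, H2BC4, H2BC18 and H2BU1, 4 of the 5 24 h libraries exceeded every jugular 3-8 h library, and for H2BC13 it was 3. Mean CPM was 4.36-fold higher at 24 h for H2BC12, 4.48-fold for H2BC18, 3.25-fold for H2BC14, 3.19-fold for H2BC13, 1.84-fold for H2BU1 and 1.499-fold for H2BC4. All 6 passed the thresholds in this fit, where 0.143% of all genes were called higher. When a 24 h library was left out, 3 (without D or without E) to 5 of the 6 passed, and never all 6. The 24 h libraries chose the genes, so that this is a description. Against coccygeal 1 h the 24 h libraries did not overlap in any of the 6, as in 1.37% of tested genes.

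The third question was whether the vein mattered at 1 h. In paired libraries of the same 5 heifers, none of the 6 genes was called between coccygeal and jugular blood, and 0% of the 14018 genes were called by edgeR, DESeq2 or both. At an unadjusted p under 0.05, edgeR gave 278 genes and DESeq2 101, and no H2B gene was among them. H2BC4 measured 8.33, 6.42, 7.59, 8.53 and 11.1 CPM in coccygeal blood of animals A to E, with a mean of 8.39 ± 1.72 CPM (SD, n = 5), and it was higher than in jugular blood in 2 of 5 animals. The 95% interval of its log2 difference was -0.41 to 0.24. H2BC12 and H2BC14 were also higher in coccygeal blood in 2 of 5 animals, H2BC13 in 1 and H2BU1 in 4.

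Precision was lower for the genes of low count. The intervals of the log2 difference between veins were -1.34 to 0.71 for H2BC12, -1.06 to 0.69 for H2BC13, -0.71 to 0.94 for H2BC14 and -0.77 to 1.03 for H2BU1 (DESeq2). For H2BC18, with 13 counts in the coccygeal and 15 in the jugular libraries, the interval was -3.01 to 1.45, and a difference of several fold was not detectable at this depth. The 6 genes had a median log2 fold change of -0.14, against -0.004 over all tested genes.

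**Figure D4:**
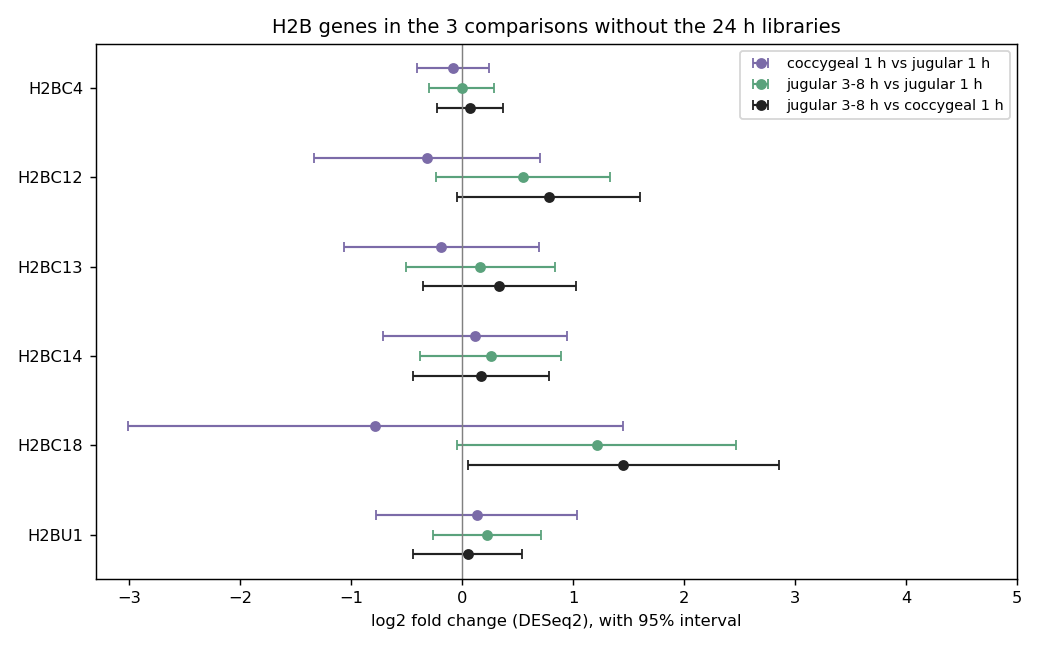
Log2 fold change (x axis, DESeq2) with its 95% interval for each H2B gene (y axis) in the 3 comparisons that leave out the 24 h libraries, with 1 colour per comparison. 17 of the 18 intervals include 0, and that of H2BC18 in jugular 3-8 h against coccygeal 1 h runs from 0.05 to 2.85, for a gene that passed the filter in 1 jugular 3-8 h library and in no 1 h library.

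Other histone genes were read beside the H2B genes. The supplementary tables used here name 9 other histone genes as higher at 24 h on these same samples, so that they are not independent evidence of a direction. H2AC10, which the study names as well, had no identifier in those tables and was not analysed here. Their median log2 fold change between jugular 24 h and 1 h was 1.18, against 1.85 for the 6 H2B genes and 0.01 over all genes, and 5 of the 9 passed the thresholds here, where 1.45% of all tested genes were called higher. The 5 were H2AC6, H2AW, H4C4, the linker histone gene H1-4 and the H2A gene H2AC21. H3C6, H4C3 and H4C8 had no DESeq2 adjusted p, and their edgeR adjusted p was 0.0144, 0.000103 and 0.00921. H2AC6, the H2A gene beside H2BC4, had means of 9.75 ± 2.88 CPM (SD, n = 5) at 1 h and 17.9 ± 3.43 CPM (SD, n = 5) at 24 h, with a log2 fold change of 0.90 beside 0.59 for H2BC4. H2AW, beside H2BU1, had means of 4.24 ± 0.712 and 7.63 ± 0.785 CPM (SD, n = 5 each), with a log2 fold change of 0.85 beside 1.08 for H2BU1. H4C4, an H4 gene, had means of 2.41 ± 0.511 and 4.97 ± 1.55 CPM (SD, n = 5 each), with a log2 fold change of 1.00. The log2 fold changes of H1-4 and H2AC21 were 3.45 and 3.66. H4C14 was not called (edgeR adjusted p = 0.0488, DESeq2 adjusted p = 0.155). It is named, after its values were seen, because it lies on chromosome 3 like H2BC18. It had a log2 fold change of 0.71 beside 3.27 for H2BC18. In the 3 comparisons without 24 h libraries, none of the 9 was called. Their median log2 fold change in jugular 3-8 h was 0.26 against coccygeal 1 h and 0.33 against jugular 1 h. Over all genes it was 0.01 in both. H4C3 (1.44 and 1.30) and H1-4 (0.94 and 1.08, edgeR) had the largest values, with H4C3 near the floor in jugular 1 h (0.203 CPM). The fits with jugular 3-8 h had no block for the animal, so that the lack of calls does not show equal levels.

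The profiles of the 6 genes were set beside those of the other genes with a symbol. Likeness was the Pearson r of log2(CPM + 1) with the mean of the 6 scaled profiles, over the 1732 other tested genes that could be given a symbol. These were the genes of a shortened annotation table and those the study listed as changed, and the histone genes named next had a symbol only because they were listed as higher at 24 h on these libraries, so that their place near the top is not independent evidence of likeness. The 5 closest were H2AC21 (r = 0.96), the H4 gene H4C3 (0.93), H1-4 (0.93), the H4 gene H4C8 (0.88) and CERS4, a ceramide synthase gene (0.74). Over the 25 libraries without 24 h the values were 0.76, 0.85, 0.75, 0.68 and 0.47. H2AC21 went from 0.853 ± 0.151 CPM (SD, n = 5) in jugular 1 h to 10.9 ± 2.91 CPM (SD, n = 5) in jugular 24 h. These libraries share animals and batch of RNA extraction, and the coefficients are a description.

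Few of the other genes of histone supply could be named. Of 13 listed genes for the transcription and 3′ end processing of histone messengers, 3 had an identifier, and none was called in any of the 5 comparisons. Among them SLBP, which binds the stem-loop, measured 81.3 CPM in jugular 1 h and 83.4 CPM in jugular 24 h on average, with a log2 fold change of 0.04. The cleavage factor gene CSTF2 had a log2 fold change of 0.07. SRRT had 0.25 (edgeR adjusted p = 0.023, DESeq2 adjusted p = 0.0081) and missed a call by the fold threshold alone. Of 18 genes of DNA replication and proliferation only MKI67, a marker of cycling cells, had an identifier, and its log2 fold change was -0.28, which was not called (adjusted p = 0.090 in edgeR and 0.027 in DESeq2). Of 12 histone chaperone genes, ASF1A and SSRP1 were matched, with log2 fold changes of -0.06 and 0.08, and of 7 genes for ubiquitin on H2B, RNF40 was matched, at -0.05. MACROH2A2, the 1 of 10 histone variant genes with an identifier, was at 0.48 and was not called. In the same libraries CD4 fell at 24 h (log2 fold change -0.62, adjusted p = 0.015 by edgeR), and CD79A was at 0.18. CD8A and CD14 were at -0.60 and -0.62 (edgeR adjusted p = 0.0049 and 0.012), but they had an identifier only because the study listed them as lower at 24 h, so that no share of markers is read from these 4, and the other 11 were not analysed here. The part of such shifts in the H2B levels was not tested.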

How the data were processed

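The deposited file gives counts per gene for 30 libraries. Per the labels and the study's methods, the authors trimmed reads with cutadapt 2.8, aligned them with HISAT2 2.2.0 to ARS-UCD1.2, filtered with SAMtools 1.10, removed duplicates and counted fragments over Ensembl exons with featureCounts (Subread 2.0.1) without regard to strand, so that reads of overlapping genes on opposite strands cannot be told apart. Libraries were assigned to groups and animals (A to E) from the study's code, and the 15 jugular columns of 3, 6 and 8 h were kept as 1 group. The numbered animals of the labels were not matched to the letters. Symbols, positions and lengths came from the study's annotation tables, which were held here in shortened form. They paired 1738 of 1807 identifiers with a symbol, so that lists of genes could be matched only in part.

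Counts were scaled by library total to counts per 1000000 (CPM). Genes with CPM above 1 in 5 or more libraries (14018) were tested with edgeR 4.0.16 (quasi-likelihood, robust, library size scaling) and DESeq2 1.42.0 (Wald) in R. Calls needed Benjamini-Hochberg adjusted p under 0.05 in both and an absolute edgeR log2 fold change above 0.5. P-values were adjusted within each of the 5 comparisons. In edgeR this covered all tested genes, and in DESeq2 those that passed its own filter. The comparisons of jugular 24 h and of coccygeal 1 h with jugular 1 h held the animal as a block; the others had none. The pairing comes from the study's code: deviations of libraries of the same animal correlated at 0.41 to 0.86, and at most 0.14 with another animal. Intervals are 1.96 DESeq2 standard errors. P-values rest on the spread between these libraries, after differences between animals are taken out in the blocked fits. The members and gene lists were chosen with earlier results of these data known. By the rule for named genes, the 6 members are given in full, of each list the called genes or up to 3 by symbol, and the 5 genes of most similar profile. Library pairs were not identical. Fits were tested on simulated data. Alternatives were scaling, tool, filter, fold threshold, block, fitted libraries and leaving out libraries; 2 of them, each jugular 3-8 h library left out and DESeq2 without independent filtering, were added after seeing the data.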

Additional observations from a re-analysis of the deposited data

How the results depend on the processing

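Between jugular 24 h and 1 h, 361 genes were called, 1301 without the fold threshold, 30 with no replicate block and 88 in 1 fit of all 30 libraries with no replicate block. Leaving out each animal in turn gave 156 (without A; 237 without B) to 396 genes, and 1 (without A; 2 without D) to 4 of the 6 H2B genes. The H2B genes lost there were left without an adjusted p by DESeq2 and kept an edgeR adjusted p under 0.05. The log2 fold changes of the H2B genes stayed above 0.5 wherever they were tested. H2BC18 and H2BU1 were not tested when CPM above 1 was required in 15 or more libraries. H2BC4 lost its call with no replicate block (log2 fold change 0.58, edgeR adjusted p = 0.098) and in the fit of all libraries (0.060), which called H2BC18 and H2BU1 in its place (5 of 6). DESeq2 without independent filtering called H2BC18 too (5 of 6, among 377 genes), and edgeR alone called 6 of 6, among 504 genes. Between jugular 24 h and 3-8 h, 28 genes were called, 68 by DESeq2 alone and 57 without the fold threshold. Leaving out a 24 h library gave 15 (without A, and 17 without D) to 34 genes, with 3 (without D or without E) to 5 H2B genes. With no filter on low counts H2BU1 was not called (edgeR adjusted p = 0.053). With CPM above 1 required in 15 or more libraries, 20 genes were called. They held 4 of the 6 H2B genes, as H2BC18 and H2BU1 were not tested. In the other 3 comparisons no gene was called under any alternative run. Signs changed only in values that were not called. Between veins, H2BC14 went to -0.048 without animal E (range -0.048 to 0.21) and H2BC18 to 0.034 without D (range -1.21 to 0.034). Between jugular 3-8 h and coccygeal 1 h, H2BC4 ranged from -0.011 to 0.19 and H2BU1 from -0.096 to 0.14 on leaving out a library, and between jugular 3-8 h and 1 h H2BC4 ranged from -0.073 to 0.061. The cause of these shifts was not tested. Mean CPM with TMM factors moved by less than 1 SD for each gene and group. Depth limits H2BC18 most, with 0 to 8 counts in each 1 h library.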
